A study of Mus musculus with 6 samples.

Results

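The 9 genes described here carry an interferon signal from the cell surface to the nucleus or switch it off again. They are the receptor chains Ifnar1, Ifnar2, Ifngr1 and Ifngr2, the kinases Jak1 and Tyk2, the transcription factor Stat2 and the negative regulators Socs1 and Usp18. They were chosen by name, with no threshold on their values, out of 54532 gene identifiers counted in each of 6 RNA libraries. The libraries came from conventional type 1 dendritic cells (cDC1s), which take up dead cells and present their antigens to CD8 T cells. Murine bone marrow was cultured for 8 days with FLT3L at 80 ng/mL, a cytokine that drives dendritic cell development, and cells with CD24 and CD11c but without B220, CD115 or CD172a were sorted. The 3 control libraries (WT in the labels, called fl/fl here) had the genotype c-Jun/JunB fl/fl, with both AP-1 genes flanked by loxP sites and no Cre named. The 3 knockout libraries (KO in the labels, called Δ/Δ here) carried the same floxed alleles together with Itgax-Cre, that is c-Jun/JunB Δ/Δ Itgax-Cre, in which the Itgax (CD11c) promoter drives the recombinase and deletion can occur only in cells that have used this promoter. The study's methods describe male and female young adult mice of a mixed 129 Sv × C57BL/6 background without assigning age or sex to libraries, and no stimulus beyond FLT3L was named for these cultures. The labels do not name the mouse behind each library, while a legend in the study's supplement counts points of these RNA data as individual mice.

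Interferons act through paired receptor chains. Type I interferons (the alpha and beta interferons) bind IFNAR1 with IFNAR2, to which the kinases TYK2 and JAK1 are attached, and the kinases phosphorylate STAT2, which acts in a complex with IRF9 on the interferon-stimulated response element (ISRE) of their target genes. Interferon gamma binds IFNGR1 with IFNGR2 and acts through JAK1 and JAK2 on a shorter element, the gamma-activated site (GAS). SOCS1 blocks the kinases, and USP18 both occupies IFNAR2 and removes the ubiquitin-like protein ISG15 from its substrates. Both inhibitors are themselves made in response to interferon, and cDC1s are known to need type I interferon signalling to prime CD8 T cells against tumours.

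Promoter sequence was read for these genes because the pathway's own targets among them can be recognised by such elements, and because the deleted genes encode AP-1 factors. The windows, from 250 bases before to 50 bases after an annotated start, were taken from RefSeq on GRCm38.p6 and were held for 8 of the 9 genes, all but Usp18. Each was searched on both strands for an ISRE core (GAAA, any 2 bases, then GAAA, read on the other strand as TTTC, any 2 bases, then TTTC), a GAS (TTCNNNGAA, the same on both strands) and an AP-1 site (TGANTCA, the same on both strands, with any base in the middle). Among all 32851 windows of 27025 genes, 3.44% held the ISRE core, 8.30% the GAS and 7.81% the AP-1 site. The ISRE core was present in 2 of the 8 genes, Stat2 and Socs1, and the GAS in 2 others, Ifnar1 and Ifnar2, while the AP-1 site was present in 0 of 8. None of the motifs matched in the windows of Ifngr1, Ifngr2, Jak1 and Tyk2. The 4 windows with a match are printed 5′ to 3′ on the gene's strand with the matched bases in capitals, followed by that of Isg15, the substrate of USP18, for comparison. In Socs1 the capitals hold 2 overlapping cores, GAAAGAGAAA from position -83 to -74 and GAAACCGAAA from -77 to -68, with position 1 the first base after the RefSeq start and no position 0. In Isg15 they hold 3 overlapping cores, GAAAAGGAAA, GAAACCGAAA and GAAACAGAAA, from -78 to -57. In Stat2 the match lay from -222 to -213, in Ifnar1 from -5 to 4 and in Ifnar2 from -214 to -206. Windows of the enzymes that attach ISG15 and of the transcription factor Stat5a, described below, were searched too. Ube2l6, Herc6 and Stat5a had no match of any motif, while Uba7 held an AP-1 site (TGACTCA) from -152 to -146.
Socs1, chr16:10785487-10785786, minus strand, ISRE core: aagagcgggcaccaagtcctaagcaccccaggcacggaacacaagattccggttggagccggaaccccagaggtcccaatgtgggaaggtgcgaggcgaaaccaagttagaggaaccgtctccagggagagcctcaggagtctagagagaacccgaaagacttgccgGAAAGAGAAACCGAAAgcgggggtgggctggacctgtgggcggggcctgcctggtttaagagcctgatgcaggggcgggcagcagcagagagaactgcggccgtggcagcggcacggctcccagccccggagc
Stat2, chr10:128270248-128270547, plus strand, ISRE core: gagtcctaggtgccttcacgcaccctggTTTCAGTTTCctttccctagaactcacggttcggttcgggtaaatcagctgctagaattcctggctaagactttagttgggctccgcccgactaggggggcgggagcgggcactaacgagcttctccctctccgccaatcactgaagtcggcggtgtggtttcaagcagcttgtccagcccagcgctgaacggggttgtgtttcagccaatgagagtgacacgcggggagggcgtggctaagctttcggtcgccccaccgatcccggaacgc
Ifnar1, chr16:91484965-91485264, plus strand, GAS: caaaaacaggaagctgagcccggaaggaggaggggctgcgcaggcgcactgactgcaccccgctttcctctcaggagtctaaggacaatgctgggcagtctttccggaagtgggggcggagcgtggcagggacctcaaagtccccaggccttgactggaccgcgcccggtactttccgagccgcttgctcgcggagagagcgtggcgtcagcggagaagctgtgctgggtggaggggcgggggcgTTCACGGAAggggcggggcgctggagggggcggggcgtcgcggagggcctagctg
Ifnar2, chr16:91372533-91372832, plus strand, GAS: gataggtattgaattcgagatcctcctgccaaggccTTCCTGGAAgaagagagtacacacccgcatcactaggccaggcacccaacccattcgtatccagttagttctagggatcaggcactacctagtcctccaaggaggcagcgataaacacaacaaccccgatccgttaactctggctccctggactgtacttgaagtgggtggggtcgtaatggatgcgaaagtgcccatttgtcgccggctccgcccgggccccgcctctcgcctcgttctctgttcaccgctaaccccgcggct
Isg15, chr4:156200769-156201068, minus strand, ISRE core: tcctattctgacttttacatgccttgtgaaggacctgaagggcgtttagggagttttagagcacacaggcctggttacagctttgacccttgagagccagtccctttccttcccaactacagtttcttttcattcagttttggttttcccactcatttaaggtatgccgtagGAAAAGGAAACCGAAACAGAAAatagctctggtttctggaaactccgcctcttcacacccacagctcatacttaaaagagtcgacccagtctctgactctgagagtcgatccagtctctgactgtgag
A match of these letters is a description of the window and not a measured binding site.

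The RNA values are counts of uniquely mapped reads per gene. Reads on genes numbered 21693217 to 26788296 per library. They are given as CPM, counts scaled to library size (edgeR's TMM, factors of 0.989 to 1.01), and means are given with the SD over 3 libraries. The test was the quasi-likelihood test of edgeR over the 12894 genes that passed its filter on low counts, and a gene is said to have risen or fallen where its Benjamini-Hochberg adjusted p over all of them was under 0.05. By that rule 500 genes differed, 3.88% of those tested, with 262 (2.03%) higher and 238 (1.85%) lower in Δ/Δ cDC1s, and the median log2 fold change of all tested genes was 0.0018. The count of 500 depended on single libraries, and was 95 when either fl/fl 1 or fl/fl 2 was left out, 201 when fl/fl 3 was and 1320 when Δ/Δ 1 was. The CPM of the deleted genes themselves were not reduced to 0. Junb was at 315, 274 and 413 CPM in fl/fl and 110.4, 171 and 212 CPM in Δ/Δ libraries, a log2 fold change of -1.02 (SE 0.247, edgeR adjusted p = 0.0729), and Jun at 70.9, 52.5 and 63.1 against 48.2, 44.3 and 60.5 CPM (-0.29, SE 0.149, edgeR adjusted p = 0.345). The counts do not separate reads of deleted from those of intact alleles. The study reports deletion of both genes by quantitative RT-PCR in cDC1s and cDC2s sorted from spleen and in lymph node cDC1s. Those were other cells than the cultured ones sequenced here. The 10 cDC1 markers summed to 11566 to 11877 CPM in fl/fl and 9584 to 10880 CPM in Δ/Δ libraries, with none at 0, and Xcr1 and Tlr3 fell. Markers of cDC2s summed to 224 to 369 against 516 to 749 CPM and those of monocytes and macrophages to 2450 to 2870 against 3466 to 4312 CPM, with 2 of 8 markers past the threshold in each list, all higher in Δ/Δ cDC1s (Cd209a and Klf4, Adgre1 and Ccr2), and with none at 0. Single genes weighed heavily in these sums, as with Lyz2 at 1760 to 1939 and Ccr2 at 659 to 909 CPM in fl/fl libraries. Cd209a was at 39.1 to 69.2 CPM in fl/fl and 196 to 268 CPM in Δ/Δ libraries. The lists were not uniform, with 4 of 10 cDC1 markers positive in sign (Cadm1 the largest at 0.32). Of tested markers, 1 of 8 for cDC2s and 2 of 7 for monocytes and macrophages were negative. The part of these markers in the differences between genotypes was not tested. In such bulk libraries fewer cells of a type and less RNA per cell cannot be told apart.

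All 9 genes passed the filter, and Usp18 alone differed between the genotypes. Usp18 fell 2.53-fold in Δ/Δ cDC1s, while the 4 receptor chains, both kinases and Stat2 had log2 fold changes between -0.07 and 0.16. Socs1 had a mean close to that of the controls but was spread widely over the Δ/Δ libraries. The 1 of 9 that fell compares with 1.85% of all tested genes that were lower, and 5 of the 9 had a negative sign against 49.7% of all tested genes. The plot of the 9 genes by library shows each value.

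**Figure D1:**
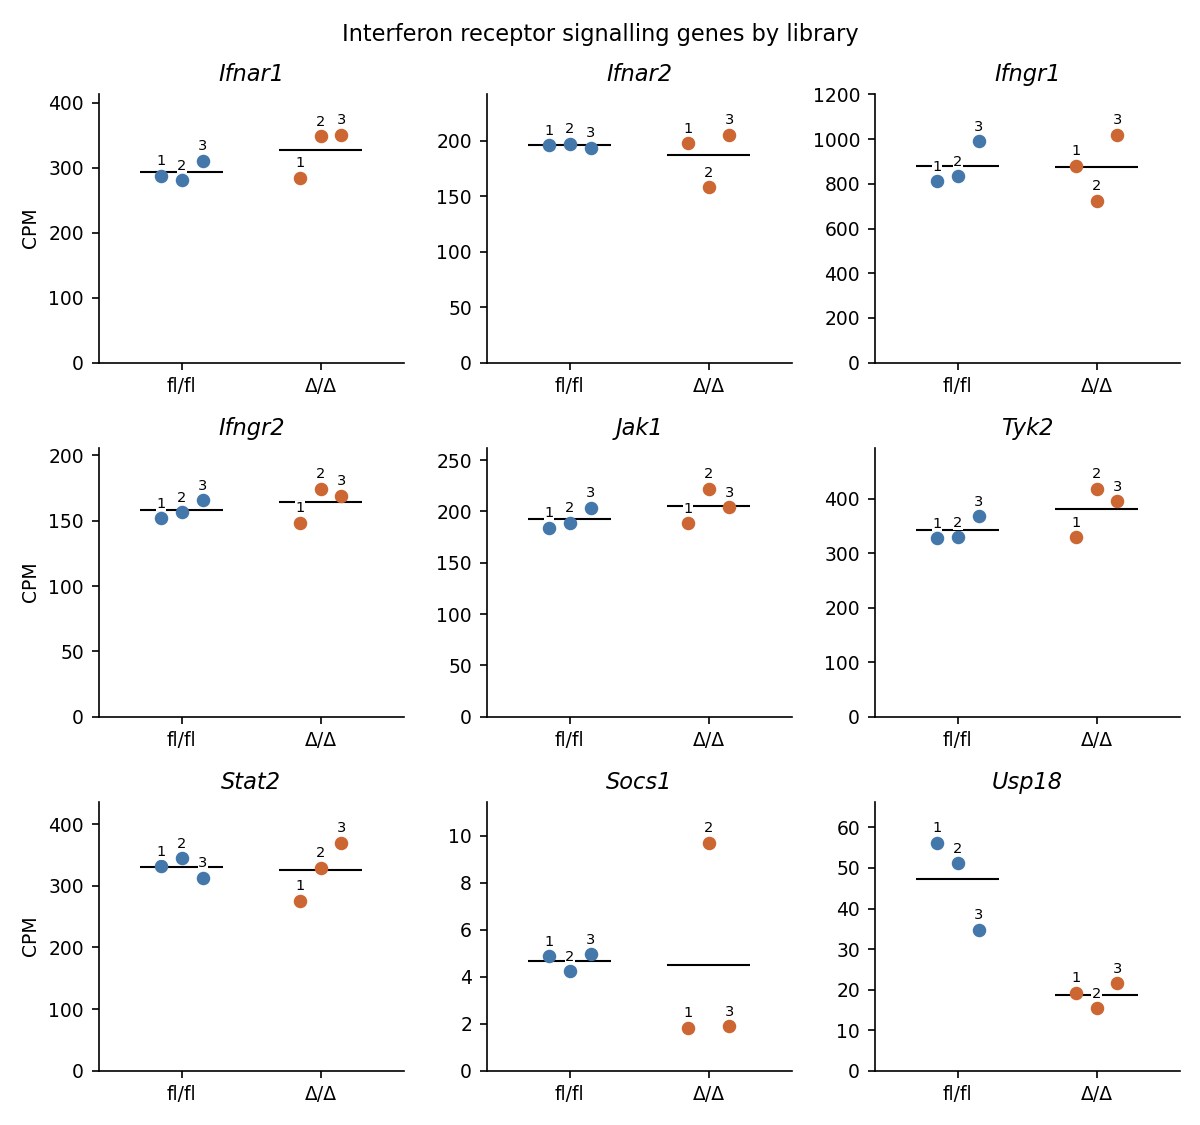
CPM (vertical axes, each from 0) of the 9 genes in the 3 fl/fl libraries (blue) and the 3 Δ/Δ libraries (orange), with replicate numbers beside the points and a line at each mean. Usp18 lies at 34.7 to 56.3 CPM in fl/fl and 15.4 to 21.6 CPM in Δ/Δ libraries without overlap, and Socs1 in Δ/Δ libraries lies at 1.83, 9.70 and 1.89 CPM.

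Ifnar1, the chain of the type I receptor that binds TYK2, was at 288.0, 280.8 and 310.9 CPM in fl/fl and 284.9, 348.7 and 351.3 CPM in Δ/Δ libraries. Its mean was 293 ± 15.7 against 328 ± 37.6 CPM (SD, n = 3 each), a log2 fold change of 0.16 with a 95% interval of -0.06 to 0.38 (edgeR adjusted p = 0.388). The lowest Δ/Δ library lay between the fl/fl libraries, so the genotypes overlapped. Ifnar2, the high-affinity chain to which USP18 also binds, was at 196, 197 and 194 CPM in fl/fl and 198, 158 and 205.5 CPM in Δ/Δ libraries. Its fl/fl libraries lay so close together that their range of 0.0251 on the log2 scale was among the smallest of all tested genes (1.72% had a smaller one), whereas Δ/Δ 2 stood below the other 5 libraries. The log2 fold change was -0.07 (95% interval -0.30 to 0.17, edgeR adjusted p = 0.765).

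Ifngr1, the ligand-binding chain of the interferon gamma receptor, was at 811, 835 and 991 CPM in fl/fl and 881, 724 and 1020 CPM in Δ/Δ libraries. The means of 879 ± 97.7 and 875 ± 148 CPM (SD, n = 3 each) nearly coincided, and the log2 fold change was -0.01 (95% interval -0.32 to 0.31, edgeR adjusted p = 0.987). Ifngr2, its signalling partner, was at 152, 156 and 166 CPM in fl/fl and 148, 175 and 169 CPM in Δ/Δ libraries. Here too the genotypes overlapped, with a log2 fold change of 0.05 (95% interval -0.13 to 0.23, edgeR adjusted p = 0.742). Ifnar2, Il10rb, Ifnar1 and Ifngr2 stand in a row within 193 kb of chromosome 16 (GRCm38), from 91372783 at the start of Ifnar2 to 91565623 at the end of Ifngr2. Il10rb, the chain that the receptors for interleukin 10 and interferon lambda share, had a log2 fold change of -0.04 (edgeR adjusted p = 0.784), so none of the 4 genes in that row passed the threshold.

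Jak1, the kinase that serves both receptors, was at 184, 189 and 204 CPM in fl/fl and 188, 222 and 204 CPM in Δ/Δ libraries, with a log2 fold change of 0.09 (95% interval -0.09 to 0.27, edgeR adjusted p = 0.551). Jak1 lies on chromosome 4 (101152367 to 101265282, minus strand), 6.10 Mb from Jun. Tyk2, the kinase of IFNAR1, was at 328, 329 and 368 CPM in fl/fl and 329, 418 and 395 CPM in Δ/Δ libraries. Both kinases overlapped between the genotypes, and Tyk2 had a log2 fold change of 0.16 (95% interval -0.08 to 0.39, edgeR adjusted p = 0.434). Stat2, the signal transducer that only type I and type III interferons use, was at 332, 345 and 313 CPM in fl/fl and 276, 329 and 370.4 CPM in Δ/Δ libraries. The 3 Δ/Δ libraries reached both below and above all fl/fl libraries, and the log2 fold change was -0.02 (95% interval -0.27 to 0.23, edgeR adjusted p = 0.939).

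In the main setting the intervals of these 7 genes, each taken by itself, lay between -0.32 and 0.39 on the log2 scale. Their standard errors were 0.0764 to 0.134, against a median of 0.128 over all tested genes, and the library Δ/Δ 1 was the lowest of the Δ/Δ libraries in 5 of the 7. With single libraries left out the log2 fold change was 0.11 to 0.26 for Ifnar1 and 0.082 to 0.25 for Tyk2. Both were largest without Δ/Δ 1, at 0.26 (SE 0.0664, edgeR adjusted p = 0.0556) and 0.25 (SE 0.0739, edgeR adjusted p = 0.0788). Neither passed the threshold there, but the intervals of the main setting are not firm limits on a difference. An adjusted p above the threshold does not show that the levels were the same.

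Usp18 was at 56.3, 51.2 and 34.7 CPM in fl/fl and 19.2, 15.4 and 21.6 CPM in Δ/Δ libraries. Every Δ/Δ library lay below every fl/fl library, and fl/fl 3 lay nearest to them. Means of 47.4 ± 11.2 and 18.7 ± 3.14 CPM (SD, n = 3 each) gave a log2 fold change of -1.34 (SE 0.203, 95% interval -1.82 to -0.86, edgeR adjusted p = 0.0177). It was the only one of the 9 genes whose genotypes did not overlap, which 26.0% of all tested genes also showed, and one of 112 genes (0.869% of those tested) that passed the threshold and were also at least 1 lower on the log2 scale. These values rested on 1459, 1380 and 819 reads in fl/fl and 473, 329 and 490 reads in Δ/Δ libraries. Without fl/fl 1 or fl/fl 2 the log2 fold change was -1.20 or -1.29 and the edgeR adjusted p 0.0939 or 0.103, so the call needed both of these controls, while Usp18 stayed lower under every alternative run (-1.52 to -1.20). Usp18 lies on chromosome 6 from 121245906 to 121270917 on the plus strand. The lincRNA Gm44148 on the other strand overlaps it and held 8 reads over all 6 libraries.

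Socs1 was at 4.86, 4.23 and 4.96 CPM in fl/fl and 1.83, 9.70 and 1.89 CPM in Δ/Δ libraries. Δ/Δ 2 stood above and Δ/Δ 1 and Δ/Δ 3 below all 3 controls, so that the mean of 4.47 ± 4.53 CPM in Δ/Δ cDC1s described none of its libraries, beside 4.68 ± 0.398 CPM in fl/fl cDC1s (SD, n = 3 each). The log2 fold change was -0.07 with a 95% interval from -1.56 to 1.41 (edgeR adjusted p = 0.966). The spread exceeded counting error, because the reads behind it (126, 114 and 117 in fl/fl, 45, 208 and 43 in Δ/Δ libraries) gave exact 95% Poisson intervals of 1.33 to 2.44 CPM for Δ/Δ 1, 8.43 to 11.1 CPM for Δ/Δ 2 and 1.37 to 2.55 CPM for Δ/Δ 3, which cover counting error only. On the log2 scale the Δ/Δ libraries spanned 2.41, a wider range than in 96.2% of tested genes, whose median range was 0.329, and the fl/fl libraries spanned 0.232, beside a median of 0.215. Without Δ/Δ 2 the log2 fold change was -1.33 (edgeR adjusted p = 0.0232, a call that 5.43% of genes also reached in that fit), and without Δ/Δ 1 or Δ/Δ 3 it was 0.31 or 0.29.

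The library Δ/Δ 2 also differed in markers of other cells. B cell markers summed to 49.3 CPM in Δ/Δ 2, against 12.7 and 24.1 CPM in Δ/Δ 1 and Δ/Δ 3 and 18.7 to 29.97 CPM in fl/fl libraries, with none of the 5 at 0 in all libraries. Markers of basophils and mast cells summed to 14.1 CPM in Δ/Δ 2 and to 0.811 and 2.25 CPM in the other Δ/Δ libraries, against 0.116 to 0.482 CPM in fl/fl libraries. The immediate early genes, which respond within minutes to handling and other stimuli, summed to 302 CPM in Δ/Δ 1, 799.9 CPM in Δ/Δ 2 and 1078 CPM in Δ/Δ 3, against 181 to 360.3 CPM in fl/fl libraries. Of these 8 genes 0 passed the edgeR threshold and 5 were higher at an unadjusted p under 0.05, which 19.4% of all tested genes reached in either direction. The part of these in the Socs1 values was not tested.

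**Figure D2:**
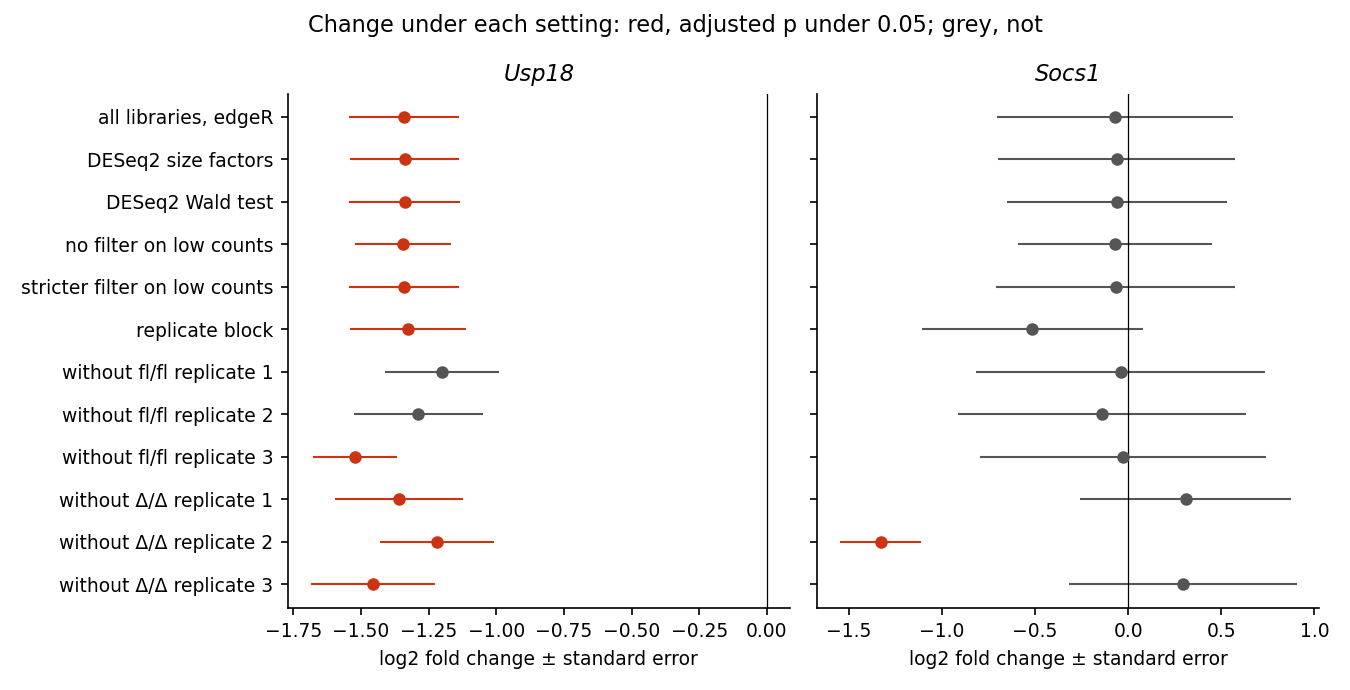
log2 fold change of Usp18 (left) and Socs1 (right) between Δ/Δ and fl/fl cDC1s, with its standard error as a bar, under the main setting and each alternative. Red marks an adjusted p under 0.05, and Socs1 is red only without Δ/Δ 2, at -1.33.

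Levels were compared between the 9 genes only per length, as CPM per kilobase of exon (RPKM). In fl/fl libraries Ifngr1 was far above the rest at 309 RPKM (range 285 to 348). Ifnar2 followed at 58.8, Stat2 at 55.7, Tyk2 at 49.8 and Ifnar1 at 49.4 RPKM, and the ranges of neighbours in this order overlapped from Ifnar2 down to Ifnar1. Ifngr2 at 41.9, Jak1 at 26.6, Usp18 at 17.0 (range 12.5 to 20.2) and Socs1 at 1.61 RPKM (range 1.45 to 1.71) each lay outside the range of the gene before. In Δ/Δ libraries Ifngr1 was at 307 and Stat2 at 54.9 RPKM, and Usp18 at 6.71 RPKM (range 5.50 to 7.74), still above Socs1 at 1.54 RPKM (range 0.628 to 3.34). The ligand-binding chain of the gamma receptor was thus the most abundant transcript of the set in both genotypes, and the inhibitors were the least abundant.

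The genes nearest to Usp18, Socs1 and Stat2 over the 6 libraries were picked by their likeness, so their shared patterns follow from that choice. Those most like Usp18 were lower in Δ/Δ cDC1s. Likeness was the root mean square difference of mean-centred log2 CPM, which was 0.0913 for Parp12, an ADP-ribosyltransferase, 0.127 for Ifit2, an interferon-induced RNA-binding protein, 0.138 for Lgals9, the lectin galectin-9, 0.143 for BC147527 and 0.153 for Hivep3. Parp12, the nearest, was at 111.0, 109.3 and 75.1 CPM in fl/fl and 35.7, 33.9 and 41.8 CPM in Δ/Δ libraries. Nearest to Socs1 were Pla2g4f (0.0840), Dock9 (0.143), Ston2 (0.146), Laptm4b (0.182) and Prnp (0.183). All 5 had their highest value in Δ/Δ 2 and lower values in Δ/Δ 1 and Δ/Δ 3 than in any fl/fl library, as with Laptm4b at 26.4, 27.4 and 31.3 CPM in fl/fl and 9.13, 44.8 and 9.60 CPM in Δ/Δ libraries. Nearest to Stat2 were Pgap3 (0.0360), Zfp609 (0.0452), Gpatch2 (0.0461), Btbd2 (0.0468) and Cirbp (0.0474), with log2 fold changes between -0.06 and 0.03.

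The ligands of these receptors were not detected. For all 21 interferon genes of the list, which held Ifnb1, the alpha genes, Ifne, Ifnk, Ifnz, Ifng, Ifnl2 and Ifnl3, 0 reads were counted in any library, which allows up to 0.0206 CPM over the 6 libraries together and 0.112 to 0.138 CPM in a single one, with 3 reads as the limit of a count of 0. The alpha genes are near-identical copies, so reads that map to several of them were not counted by the authors' processing.

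Other chains of the same receptor family did not pass the threshold. Of 8 such genes 4 were tested, 0 rose and 0 fell, the median log2 fold change was 0.17 and the largest change was that of Ifnlr1, the chain specific to interferon lambda (0.56, SE 0.583, edgeR adjusted p = 0.643, with at most 2.10 CPM in a library). With Δ/Δ 1 left out, Il10ra, the ligand-binding chain for interleukin 10, passed (0.47, edgeR adjusted p = 0.0296). Among 8 other kinases and transcription factors of the pathway 1 rose and 0 fell, with a median log2 fold change of 0.20. Of all tested genes 2.03% rose and 1.85% fell. At an unadjusted p under 0.05, which 19.4% of all tested genes reached in either direction, 4 of the 8 were higher and 1 lower. Without overlap of the genotypes 2 were higher and 0 lower, against 13.7% and 12.3% of all tested genes. Stat5a, which acts downstream of GM-CSF and related cytokines, was at 85.4, 89.7 and 94.0 CPM in fl/fl and 106.7, 121 and 130.0 CPM in Δ/Δ libraries, and rose by 0.41 (SE 0.0843, edgeR adjusted p = 0.0460). Its adjusted p lay just under the threshold, and leaving out any single library except Δ/Δ 1 ended the call (edgeR adjusted p 0.0707 to 0.221). Stat5b, outside the naming rule, was also higher in every Δ/Δ than in any fl/fl library (0.36, SE 0.0784, edgeR adjusted p = 0.0570). Stat5b passed with DESeq2's Wald test (adjusted p = 0.00398) and without a filter (edgeR adjusted p = 0.0391). The largest log2 fold change of the list was that of Jak3, a kinase of receptors that use the common gamma chain, which was at 31.7, 32.6 and 38.9 CPM in fl/fl and 33.7, 60.4 and 56.8 CPM in Δ/Δ libraries (0.55, SE 0.215, edgeR adjusted p = 0.227). Irf9, the DNA-binding partner of STAT2, had a log2 fold change of -0.21 (edgeR adjusted p = 0.250).

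The other inhibitors of cytokine signalling, 15 genes of the SOCS, PIAS and phosphatase families, were all tested, and 0 rose or fell by edgeR, with a median log2 fold change of 0.06. At an unadjusted p under 0.05, which 19.4% of all tested genes reached, 2 were higher and 0 lower, and DESeq2's Wald test put Socs3 past the threshold, as it did 8.56% of all genes. The largest log2 fold change, 2.42 (SE 1.38, edgeR adjusted p = 0.386), was that of Cish, an inhibitor induced through STAT5. Cish was at 0.270, 1.63 and 4.07 CPM in fl/fl and 1.501, 29.3 and 1.06 CPM in Δ/Δ libraries, so that its change rested on Δ/Δ 2, without which it was -0.62. Socs2 and Socs3, named here after their values were seen, are other genes of the SOCS family. Socs2 was at 32.9, 22.0 and 27.4 CPM in fl/fl and 3.85, 40.0 and 8.15 CPM in Δ/Δ libraries. As with Socs1, Δ/Δ 2 stood above and Δ/Δ 1 and Δ/Δ 3 below all fl/fl libraries. Without Δ/Δ 2 the log2 fold change of Socs2 was -2.20 (edgeR adjusted p = 0.0198). Socs3, at 3.66, 5.04 and 8.27 against 7.75, 28.9 and 15.5 CPM (1.62, edgeR adjusted p = 0.136, and 0.0203 without Δ/Δ 1), was highest in Δ/Δ 2 as well. Of the 15 inhibitors, 8 had their highest Δ/Δ value in Δ/Δ 2, 3 in Δ/Δ 1 and 4 in Δ/Δ 3. The share of all tested genes that were highest in Δ/Δ 2 was not worked out.

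**Figure D3:**
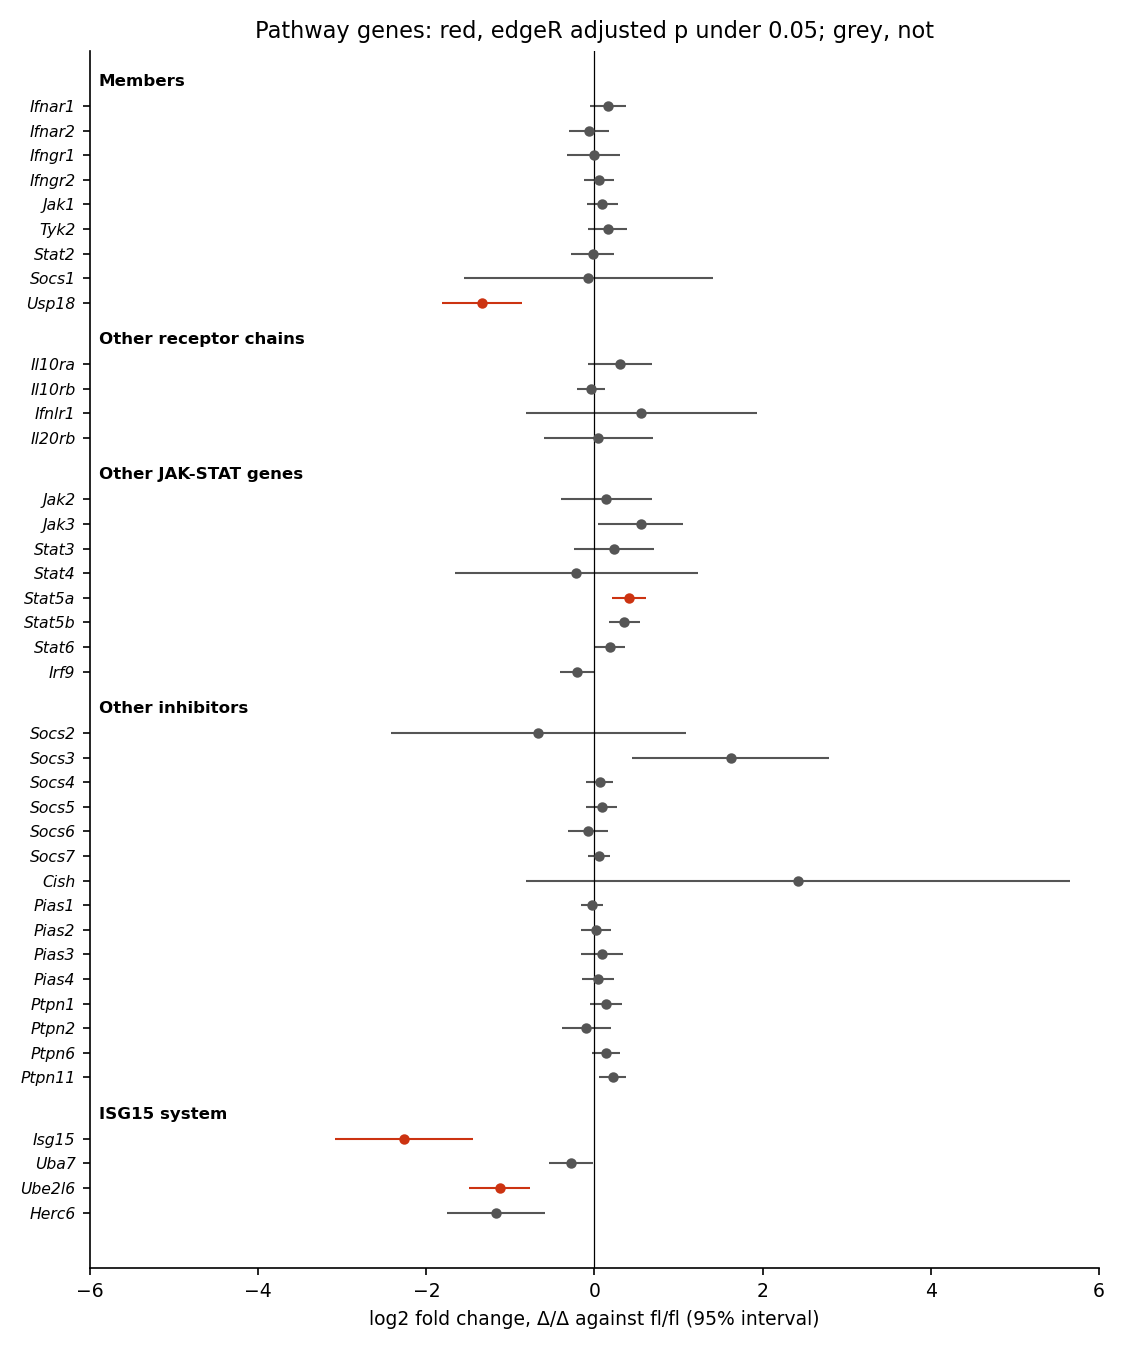
log2 fold change (horizontal axis) between Δ/Δ and fl/fl cDC1s with its 95% interval for the 9 genes and the tested genes of 4 related lists, in red where the edgeR adjusted p was under 0.05. Usp18 at -1.34, Isg15 at -2.27, Ube2l6 at -1.13 and Stat5a at 0.41 are red. The 4 receptor chains among the 9 genes lie between -0.07 and 0.16, and of the other chains Il10ra lies at 0.30 and Ifnlr1 at 0.56.

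The 4 genes of the ISG15 system, which attaches the modifier that USP18 removes, were all lower in every Δ/Δ than in any fl/fl library, which held for 12.3% of all tested genes, and 2 of them fell by the test, as did 1.85% of all. Isg15, the modifier, was at 24.6, 20.0 and 12.7 CPM in fl/fl and 2.64, 5.79 and 3.48 CPM in Δ/Δ libraries, a log2 fold change of -2.27 (SE 0.350, edgeR adjusted p = 0.0187). Ube2l6, the conjugating enzyme, was at 52.3, 50.1 and 39.7 against 18.9, 25.9 and 20.2 CPM (-1.13, SE 0.155, edgeR adjusted p = 0.0131). The ligase Herc6 had a log2 fold change of -1.17 (edgeR adjusted p = 0.0509) and the activating enzyme Uba7 one of -0.28 (edgeR adjusted p = 0.227), which gave the list a median of -1.15. Without fl/fl 1 or fl/fl 2 neither Isg15 nor Ube2l6 passed the threshold (edgeR adjusted p 0.0836 to 0.103), and without Δ/Δ 3 Isg15 did not (0.0591).

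Among 14 target genes of type I interferon, 6 fell and 0 rose, against 1.85% and 2.03% of all tested genes, with a median log2 fold change of -1.34. Without overlap of the genotypes 12 were lower and 1 higher, against 12.3% and 13.7% of all tested genes. Without fl/fl 1 or fl/fl 2, 1 of the 14 passed the threshold in place of 6, against 0.72% of all tested genes in each of these fits. The largest changes were those of Rtp4 (-2.97, edgeR adjusted p = 0.0116), Rsad2 (-2.21, edgeR adjusted p = 0.0863) and Ifit3 (-1.74, edgeR adjusted p = 0.261), and Ifi44 was the member with a positive value (0.72, edgeR adjusted p = 0.284). Among 8 target genes of interferon gamma 1 rose and 0 fell, with a median of -0.02. The one that rose was Ciita, the master regulator of MHC class II genes (0.46, edgeR adjusted p = 0.0159). Without any one of the fl/fl libraries 0 of the 8 passed, against 0.72% to 1.51% of all tested genes in those fits. The largest log2 fold changes of that list were those of Gbp2 (-0.79, edgeR adjusted p = 0.611) and Gbp4 (-0.75, edgeR adjusted p = 0.481). Without Δ/Δ 2 the change of Gbp2 was -2.35 (edgeR adjusted p = 0.0188) and the median was -0.51. In that fit 2 of the 8 passed the threshold, against 5.43% of all tested genes. Of the 8 gamma target genes, 6 had their highest Δ/Δ value in Δ/Δ 2 and 2 in Δ/Δ 3, without a share over all tested genes to set beside these counts. Gbp5, named after its values were seen, was at 11.2, 6.90 and 9.59 CPM in fl/fl and 0.487, 32.2 and 2.91 CPM in Δ/Δ libraries. There too Δ/Δ 2 stood above and Δ/Δ 1 and Δ/Δ 3 below all fl/fl libraries, as with Socs1. The 2 inhibitors among the 9 genes thus followed different patterns across the Δ/Δ libraries, with Usp18 low in all 3 and Socs1 high in Δ/Δ 2, as the map of libraries against the fl/fl mean shows.

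**Figure D4:**
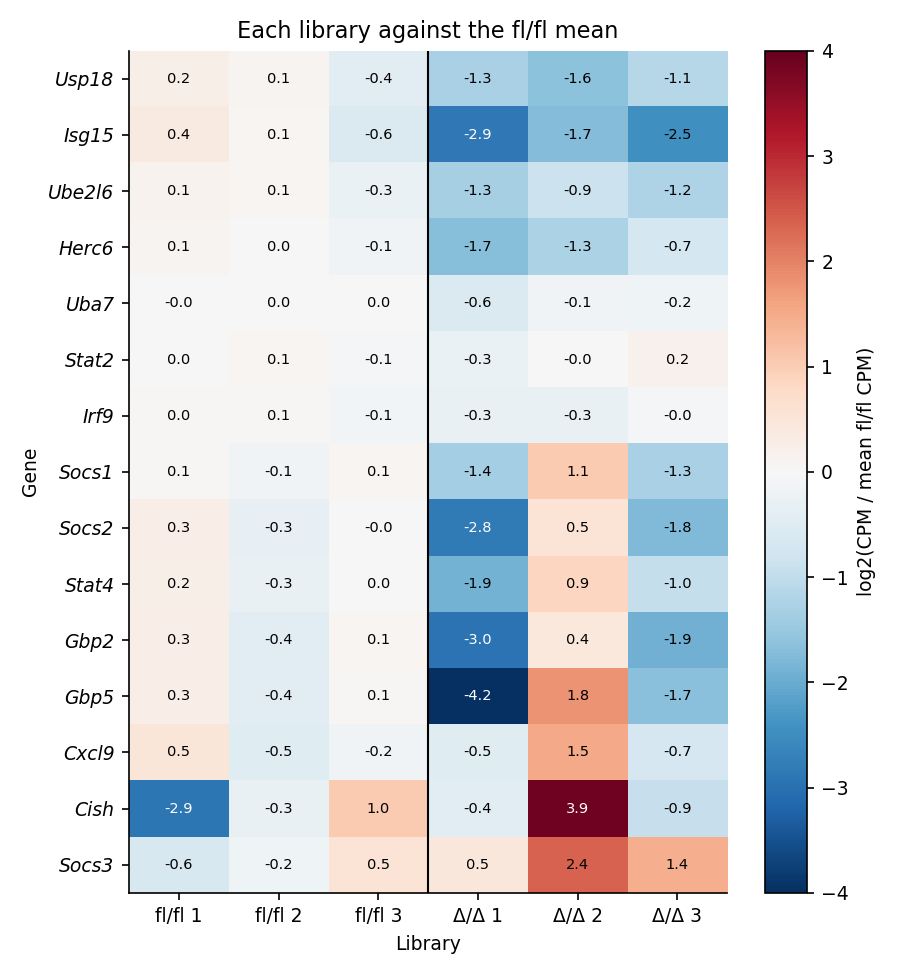
log2 of each library's CPM over the mean fl/fl CPM (color scale, with values printed in the cells) for 15 pathway genes in the 3 fl/fl and 3 Δ/Δ libraries, chosen after their values were seen. Usp18 lies between -1.63 and -1.13 in the Δ/Δ libraries, whereas Socs1 lies at -1.36, 1.05 and -1.31 in Δ/Δ 1, 2 and 3.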

How the data were processed

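RNA of sorted FLT3L-derived cDC1s was measured in 6 poly(A), strand-directional libraries, 3 per genotype. The authors aligned the paired reads to mm10 (GRCm38) with STAR 2.6.1a and Gencode vM19 and deposited raw counts of uniquely mapped reads per gene, without normalization or pooling. The submitters' processing notes also name bcl2fastq 2.19.1.403, RSEM and DESeq2 1.20.0. The sources used here do not give which strand column was counted. Of the 54532 identifiers, 54495 were named from GENCODE M21, and 79.1 to 79.7% of tallied reads lay on genes. The 4 tally lines per file, which name no gene, stayed out of library sizes and tests. Groups came from the labels' genotype.

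Counts were analyzed with edgeR 4.0.16 in R 4.3.3 (TMM, genotype as the only term, glmQLFit, glmQLFTest, and filterByExpr at its minimum count of 10 and total of 15). Fold changes are fitted values of Δ/Δ over fl/fl. RPKM used the union of exons. Log2 CPM for likeness used a prior count of 2. The 3 genes named for the type I list and the 2 of the gamma list followed the size of the change. Alternatives were DESeq2's size factors, the Wald test of DESeq2 1.42.0, no filter, a filter at 10 reads and at 1 CPM on average, a replicate block and each library left out. Fitting was tested on simulated counts for 12894 genes. Of 200 genes given a log2 change of 2, edgeR recovered 193 with 1 false call, and DESeq2 193 with 0. The simulated counts had the same spread for every gene and in both genotypes. Smaller changes, or a wider spread in Δ/Δ libraries, were not tested in this way. No pair of libraries agreed within sampling noise (chi-square over genes divided by its degrees of freedom, 6.35 to 10.4 for fl/fl pairs and 27.9 to 38.5 for Δ/Δ pairs). PCR copies were not told apart, so intervals and limits of a count of 0 cover counting error only. The 9 genes, the lists and the rule for naming genes were chosen with earlier results of these data known. The rule named the 9 genes and the deleted genes with all values, of each pathway list the genes past the threshold and the one with the largest change, of the target lists up to 3 with the largest change, and the 5 genes most like Usp18, Stat2 and Socs1. Some pathway genes are not reported here. Genes outside the rule are said to be so or stand beside a value they bear on. Neutrophil markers (8 genes) summed to 4.20 to 17.6 CPM in fl/fl and 0.852 to 7.42 CPM in Δ/Δ libraries, with Ly6g and Elane at 0, those of plasmacytoid dendritic cells (8 genes) to 124 to 136 and 166 to 218 CPM with 1 past the threshold (Ccr9, higher), and those of T and NK cells (6 genes) to at most 1.06 CPM.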

Additional observations from a re-analysis of the deposited data

How the results depend on the processing

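Of 121 fold changes of single genes under an alternative, 107 kept their direction and side of the threshold, 7 changed sign, 2 lost and 5 gained a call. Of 99 counts 63 stayed within 1.5 times and 36 did not. The 66 medians of lists moved by less than 1 SD between Δ/Δ libraries, but 4 of them changed sign, to -0.0031 for the other receptor chains without a filter and to 0.053, 0.18 and 0.038 for the gamma targets without fl/fl 1, Δ/Δ 1 or Δ/Δ 3. That SD comes from the same Δ/Δ libraries, so staying within it does not show that a median was stable. For the gamma targets it was 0.54, while their median moved from -0.02 to -0.51 without Δ/Δ 2. The count of genes past the threshold, 500, was 1104 with DESeq2's Wald test and 762 without a filter, and ranged from 95 to 1320 with single libraries left out. The count with a log2 fold change of at least 1 was 240, 385 with DESeq2's Wald test and 74 to 579 with libraries left out. The number of the 9 genes past the threshold was 1, and 0 to 2 with libraries left out. Leaving out single libraries gave Usp18 log2 fold changes of -1.52 to -1.20 (edgeR adjusted p 0.0164 to 0.103), and the lowest adjusted p over all alternatives was 7.6e-09. It gave Socs1 -1.33 to 0.31, Ifnar2 -0.14 to 0.04, Ifngr1 -0.13 to 0.11 and Stat2 -0.13 to 0.09, with the positive values 0.042 for Ifnar2, 0.087 and 0.11 for Ifngr1, 0.0095 and 0.087 for Stat2 and 0.29 and 0.31 for Socs1. Every fit, with or without a library left out, assumed that the libraries of both genotypes vary alike. The Δ/Δ pairs differed more than the fl/fl pairs (chi-square over degrees of freedom 27.9 to 38.5 against 6.35 to 10.4). Junb passed the threshold with DESeq2's Wald test (-1.02, adjusted p = 0.000119), without a filter (edgeR adjusted p = 0.0161), with the replicate block (0.0370) and without Δ/Δ 1 (0.0359). The cause of these changes was not tested.

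A replicate block left 417 genes past the threshold and 207 of them with a log2 fold change of at least 1. With it Usp18 was at -1.33 (edgeR adjusted p = 0.0439) and Socs1 at -0.52 (edgeR adjusted p = 0.668), and 1 of the 9 genes passed. Of the 14 type I target genes 3 passed in place of 6, against 3.23% of all tested genes with the block and 3.88% without it. Deviations of same-numbered libraries correlated at 0.091, -0.15 and 0.20 across genes, and not every library correlated best with its own number, so the numbers were not taken to pair the samples. Counting error adds to the spread of genes with few reads, such as Ifnlr1 with 11 to 45, Cish with 7 to 629 and Socs1 with 43 to 208 reads per library. For Cish and Socs1 the Δ/Δ libraries differed by more than counting error.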
